A study of Homo sapiens with 18 samples.

Results

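The MHC class I chains were followed as 7 genes, the heavy chain genes HLA-B, HLA-C, HLA-E, HLA-F and HLA-G, the light chain gene B2M and the regulator NLRC5. They were chosen by gene symbol among the 55765 symbols of each count table, and all 7 were found in both tables. Not every class I gene was analysed here. Summed heavy chains cover these 5 genes and a list of class I pseudogenes, while ratios within a library use the 5 genes alone. OVCAR3, an established adherent line derived from high-grade serous ovarian carcinoma, was the only cell model. RNA was sequenced in 18 libraries that formed 2 series of 9, with 3 libraries in each of 6 groups. The first series compared cells given non-specific human IgA, cells given non-specific human IgG and untreated cells. The second compared cells given IgA against BDNF, a secreted neurotrophin, cells given IgA against TSPAN7, a tetraspanin of the cell surface, and its own untreated cells. Antibody was added at 0.5 µg/ml for 24 h, per the labels, in low-serum medium, and the labels name no genetic change in any group. The second series held no group given non-specific IgA, so an effect of IgA as such and one of its target cannot be told apart there. The question was which transcripts change in tumour cells exposed to IgA, which these cells can carry across by the polymeric immunoglobulin receptor. The series were counted and compared separately, and no value is set between them as a test.

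A classical class I molecule is a heavy chain bound to β2-microglobulin, the product of B2M, with a short peptide held in its groove for inspection by CD8+ T cells. HLA-B and HLA-C are classical heavy chains. HLA-E, which presents leader peptides of other class I chains to natural killer cells, and HLA-F and HLA-G, which have restricted expression, are non-classical ones. NLRC5 is a nuclear protein of the NOD-like receptor family that acts as coactivator at class I promoters. Their upstream elements include a κB site, an interferon-stimulated response element (ISRE) and the SXY module, of which the Y box holds the letters CCAAT. Interferons and NF-κB raise class I transcription in many epithelial cells.

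The proximal promoters are shown because the genes described below differed in how far their levels changed. RefSeq windows on GRCh38.p14 were matched by symbol for 5 of the 7 genes, not for HLA-E and NLRC5. For HLA-G the window nearest the coding gene is given, out of 3. The 190 bases upstream of each start site are printed 5′ to 3′ on the gene's strand, and capitals mark every match, on either strand, to a κB motif (GGGGA, any base, TCCC), the ISRE (GAAA, any 2 bases, GAAA), a relaxed ISRE (GAA, any 2 bases, GAAA, added after the sequences had been seen), TGACG (part of a cyclic AMP response element) and CCAAT. The windows lie at chr6:31357180-31357369, minus strand for HLA-B, chr6:31272093-31272282, minus strand for HLA-C, chr6:29723244-29723433, plus strand for HLA-F, chr6:29827635-29827824, plus strand for HLA-G and chr15:44711327-44711516, plus strand for B2M.
HLA-B: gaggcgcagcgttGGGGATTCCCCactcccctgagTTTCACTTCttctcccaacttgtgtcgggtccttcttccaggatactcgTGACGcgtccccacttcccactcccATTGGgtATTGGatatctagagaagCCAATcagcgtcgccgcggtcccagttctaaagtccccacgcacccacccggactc
HLA-C: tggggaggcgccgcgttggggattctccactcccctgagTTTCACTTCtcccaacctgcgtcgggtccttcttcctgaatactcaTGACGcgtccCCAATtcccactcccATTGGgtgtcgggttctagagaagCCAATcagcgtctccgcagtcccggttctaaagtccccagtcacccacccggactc
HLA-F: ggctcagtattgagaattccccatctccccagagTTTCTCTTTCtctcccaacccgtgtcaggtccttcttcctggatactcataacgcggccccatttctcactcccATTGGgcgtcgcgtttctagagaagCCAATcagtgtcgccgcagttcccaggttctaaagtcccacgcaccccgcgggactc
HLA-G: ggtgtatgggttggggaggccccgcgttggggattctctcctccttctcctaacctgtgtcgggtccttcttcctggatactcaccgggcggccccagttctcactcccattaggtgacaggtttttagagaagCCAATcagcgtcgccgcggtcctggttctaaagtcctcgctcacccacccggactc
B2M: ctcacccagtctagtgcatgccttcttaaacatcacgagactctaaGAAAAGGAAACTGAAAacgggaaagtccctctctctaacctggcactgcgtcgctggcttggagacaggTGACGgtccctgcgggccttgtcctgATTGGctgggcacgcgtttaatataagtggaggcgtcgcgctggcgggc

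The κB letters were found in HLA-B and in none of the other 4 genes, as 2 overlapping matches that begin 177 and 176 bases before the start site. Of all RefSeq windows, 0.367% hold that motif within 250 bases upstream. The relaxed ISRE letters stood in HLA-B and HLA-C, beginning 155 and 151 bases before the start site, against 6.56% of all windows. The full ISRE letters were found once in HLA-F and as 2 overlapping matches in B2M, against 3.02% of 35116 windows. The relaxed letters are spaced differently from the full ones, and neither HLA-F nor B2M held a match to them. TGACG was found in HLA-B, HLA-C and B2M (21.2% of windows), and CCAAT in all 5 (32.0% of windows). The HLA-G window held CCAAT once, 56 bases before the start site, and none of the other marked motifs. The complete cyclic AMP response element (1.65% of windows), the letters TTC, any 3 bases, GAA (6.57%) and TATAAA (10.7%) were also searched and were not found in the 5 windows printed. Absence of a match says only that those letters are not in the window.

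The genes were annotated on GRCh37, the build the counts were made on. HLA-F (chr6:29690552-29706305, plus strand), HLA-G (chr6:29794744-29798902, plus), HLA-E (chr6:30457286-30461971, plus), HLA-C (chr6:31236526-31239907, minus) and HLA-B (chr6:31321649-31334844, minus) lie in the MHC region. B2M lies at chr15:45003556-45011049 (plus) and NLRC5 at chr16:57023397-57117443 (plus). Read sharing differed between them. Of the 75-base windows of each gene's MANE transcript, 14.98% for HLA-B, 1.98% for HLA-C, 2.30% for HLA-E, 29.0% for HLA-F and 20.8% for HLA-G also occur in an annotated transcript of another gene, and none for B2M and NLRC5. For HLA-B and HLA-F these were genes on the opposite strand, among them HLA-F-AS1. For HLA-G they were HCG4P8, also on the opposite strand, and HLA-E. The sources used here do not state whether counting used strand. Reads that aligned to more than 1 place were not counted, so heavy chain values can miss reads that fit several family members, and OVCAR3 alleles that differ from the reference can lose others. How far that moved these counts was not tested.

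Library totals were 27920733 to 42371474 counts for the first series and 39254350 to 47381836 for the second. Non-specific IgA replicate 3 stood apart, with the lowest total and 19.1% of its counts from mitochondrially encoded genes, against 5.75% to 8.32% in the other 8 libraries of its series, so fold changes or counts of calls without it are given for the class I genes and the lists. All 8 markers of serous epithelium (from PAX8 to CDH1) were present in every library at 24.8 CPM (counts scaled to a common library total) or more. Leukocyte markers stayed at or below 1.57 CPM, with ITGAM at 0 throughout the first series, while of 4 fibroblast markers COL1A1 and COL1A2 were present (up to 80.1 CPM) and DCN and PDGFRB were near 0. Levels below are normalised counts, in which every library of a series was brought to that series' average effective depth. A gene was called at an edgeR adjusted p under 0.05 over all genes tested, 18012 for the first series and 18732 for the second. The labels do not say that replicates were separate cultures, so p-values measure the spread between these libraries. Less RNA per cell and a changed cell mixture cannot be told apart in such bulk samples.

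Untreated cells expressed the light chain and the heavy chains at very different levels. Set per length, as RPKM (counts per kilobase of the MANE transcript, scaled for depth), B2M was highest in untreated cells of the first series at 273 ± 6.0 (SD, n = 3), followed by HLA-C at 160 ± 4.97, HLA-E at 38.9 ± 2.83, HLA-B at 35.9 ± 0.136, HLA-F at 3.49 ± 0.636, NLRC5 at 0.935 ± 0.0511 and HLA-G at 0.0490 ± 0.0543. In untreated cells of the second series B2M stood at 468 ± 20.4 RPKM, HLA-C at 177 ± 6.36, HLA-B at 66.7 ± 3.05, HLA-E at 42.3 ± 0.577, HLA-F at 9.57 ± 0.300, NLRC5 at 2.39 ± 0.0775 and HLA-G at 0.164 ± 0.0775. Every step of these orders was larger than the spread, since no neighbouring pair overlapped in any library. B2M, HLA-C, HLA-F, NLRC5 and HLA-G held the same places in all 6 groups. HLA-B and HLA-E did not. HLA-E was above HLA-B in untreated and IgG-treated cells of the first series, with overlapping ranges under IgG. HLA-B averaged 58.9 ± 15.4 RPKM against 55.3 ± 8.40 for HLA-E under non-specific IgA, again with overlapping ranges, and it was clearly above HLA-E in all groups of the second series.

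HLA-G, the chain best known from trophoblast, was at the edge of detection. Raw counts were between 0 and 10 per library of the first series, where the gene did not reach the filter on low counts and was not tested, and in the second they were between 7 and 27.

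Under non-specific IgA, HLA-B, HLA-E, HLA-F and B2M were higher than under non-specific IgG, while HLA-C and NLRC5 were not called and HLA-G was not tested. Of the 6 genes tested, 4 were called higher and 0 lower, and 1 was called higher when libraries were scaled by total count alone, while 24.2% of all genes tested were called in that comparison and 12.6% were called higher. The median log2 fold change of the 6 was 0.47 beside -0.01 for all genes tested. In 5 of the 6 the groups did not overlap, all with IgA higher, a pattern seen in 19.7% of all genes tested.

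HLA-B had 3395, 2273 and 3899 normalised counts in non-specific IgA replicates 1 to 3, 1692, 2146 and 1825 in the IgG libraries, and 1946, 1952 and 1938 in untreated cells. All 3 IgA libraries were above all 6 others, although replicate 2 was only just above the highest IgG library. The log2 fold change was 0.75 (SE 0.16, edgeR adjusted p = 0.00552) against IgG and 0.71 (SE 0.16, adjusted p = 0.00733) against untreated cells. The call held under all 17 alternative fits in both comparisons, and without IgA replicate 3 the log2 fold changes were 0.58 and 0.54.

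HLA-C, the most abundant heavy chain, had 11535, 9915 and 9006 normalised counts with IgA, 7899, 8977 and 8379 with IgG, and 8803, 8372 and 8869 in untreated cells. The lowest IgA library, replicate 3, was the one high in mitochondrial counts, and it lay just above the highest of the others. The log2 fold changes of 0.27 (SE 0.10, edgeR adjusted p = 0.0766) against IgG and 0.23 (SE 0.10, adjusted p = 0.132) against untreated cells were not called. Without IgA replicate 3 they were 0.35 (adjusted p = 0.0178) and 0.30 (adjusted p = 0.0327), and both were called.

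HLA-E had 5387, 4099 and 5423 normalised counts with IgA, 3364, 3715 and 3633 with IgG, and 3770, 3269 and 3447 in untreated cells, so the IgA libraries did not overlap the rest. Its log2 fold change was 0.48 (SE 0.12, edgeR adjusted p = 0.011) against IgG and 0.51 (SE 0.12, adjusted p = 0.00758) against untreated cells. B2M behaved alike, with 12624, 10620 and 13288 normalised counts under IgA, 8364, 9382 and 8805 under IgG, and 9312, 8953 and 8982 in untreated cells. The light chain was called higher, with a log2 fold change of 0.46 (SE 0.10, adjusted p = 0.00604) against IgG and 0.42 (SE 0.10, adjusted p = 0.00925) against untreated cells. Both genes kept their calls without any 1 library, and without IgA replicate 3 they stood at 0.41 and 0.39 against IgG. Both lost them when libraries were scaled by total count alone, where HLA-E stood at 0.23 (adjusted p = 0.186) and B2M at 0.21 (adjusted p = 0.172) against IgG. That scaling shifted all genes by a median log2 fold change of -0.23 in this comparison and of -0.21 against untreated cells, so these changes are relative to the bulk of genes.

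HLA-F, the least abundant of the heavy chains tested, had 318, 244 and 499 normalised counts with IgA, 175, 214 and 209 with IgG, and 207, 195 and 144 in untreated cells. IgA replicate 3 was the highest of the 9 libraries. The log2 fold change was 0.82 (SE 0.25, edgeR adjusted p = 0.029) against IgG and 0.95 (SE 0.25, adjusted p = 0.0141) against untreated cells. The first of these calls was lost with only the 6 libraries compared (adjusted p = 0.0559), with scaling by total count alone (0.55, adjusted p = 0.084), without IgA replicate 3 (0.49, adjusted p = 0.0876) and without IgG replicates 1 (0.73, adjusted p = 0.0989), 2 (0.87, adjusted p = 0.0688) or 3 (0.85, adjusted p = 0.0741), and the second without untreated replicate 3 (0.81, adjusted p = 0.0707). HLA-F-AS1, the antisense gene that overlaps HLA-F exons, had 54.9, 74.9 and 155 normalised counts under IgA, 42.9, 33.7 and 31.8 under IgG, and 10.4, 18.5 and 30.6 in untreated cells. Its log2 fold change was 1.37 (adjusted p = 0.043) against IgG and, without IgA replicate 3, 0.84 (adjusted p = 0.166), which was not called. Reads from the part that the 2 genes share cannot be told apart if strand was not used. How counting treated such reads is not stated in the sources used here.

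NLRC5 was not called in this series. It had 247, 212 and 220 normalised counts with IgA, 306, 284 and 189 with IgG, and 237, 213 and 221 in untreated cells, and the groups overlapped. The log2 fold change was -0.20 against IgG (95% interval -0.62 to 0.22, edgeR adjusted p = 0.486) and 0.02 against untreated cells (-0.40 to 0.44, adjusted p = 0.959), and -0.19 and 0.04 without IgA replicate 3. These intervals do not contain the HLA-B values of the same comparisons, but those values have errors of their own. Whether NLRC5 and HLA-B differed in their change was not tested.

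Against untreated cells, the non-specific IgA group again had 4 of 6 genes called higher (HLA-B, HLA-E, HLA-F and B2M) and 0 lower, beside 25% of all genes called in either direction and 12.9% called higher. The median log2 fold change was 0.47 beside -0.01 for all genes tested. Here too 5 of the 6 had groups that did not overlap, with IgA higher, as had 19.8% of all genes. The IgA libraries enter both comparisons, so the second repeats much of the first. The sum of the 5 heavy chains and the listed pseudogenes was 20730, 16612 and 18950 normalised counts with IgA, 13193, 15140 and 14136 with IgG, and 14809, 13852 and 14490 in untreated cells. Its log2 fold changes were 0.41 (SE 0.10) against IgG and 0.38 (SE 0.10) against untreated cells. Both were 0.17 (SE 0.12) with scaling by total count alone.

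**Figure D1:**
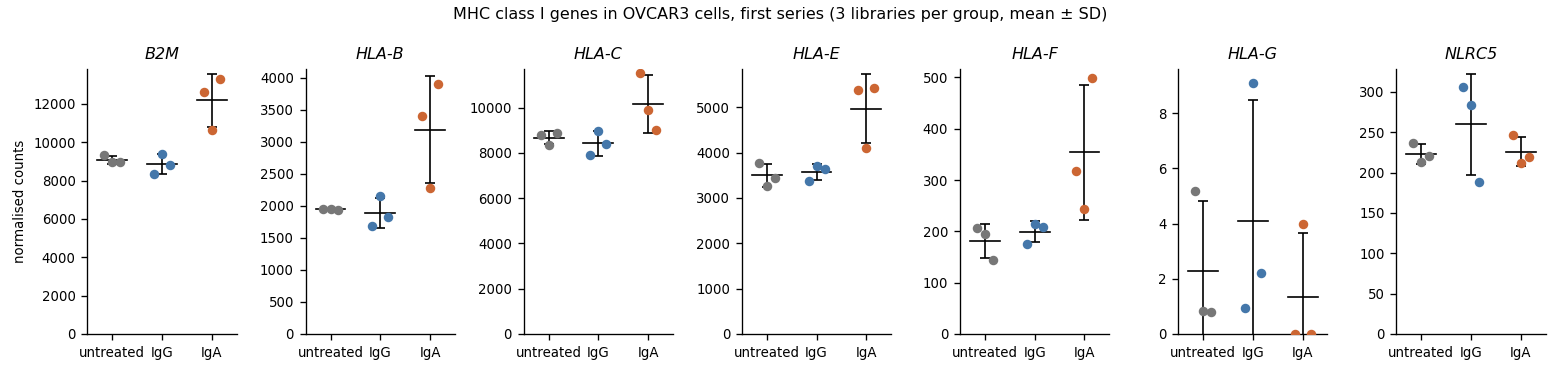
Normalised counts (y axis, from 0) of the 7 genes in untreated, non-specific IgG and non-specific IgA libraries of the first series, with 1 point per library in replicate order from left to right and the mean ± SD of 3 libraries in black. The IgA points lie above the others for B2M, HLA-B, HLA-C, HLA-E and HLA-F, the groups overlap for NLRC5, and HLA-G stays below 10 normalised counts.

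Non-specific IgG gave no called class I gene against untreated cells. Of the 6 genes tested 0 were called by edgeR, 0 had an unadjusted p under 0.05, and DESeq2 called 0. Across the genome 0% of genes were called and 6.75% had groups that did not overlap, a pattern that 0 of the 6 showed. The log2 fold changes were -0.04 for HLA-B (95% interval -0.39 to 0.31), -0.04 for HLA-C (-0.27 to 0.18), 0.03 for HLA-E (-0.22 to 0.28), 0.13 for HLA-F (-0.40 to 0.67), -0.04 for B2M (-0.26 to 0.18) and 0.22 for NLRC5 (-0.20 to 0.64).

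Class I genes were higher with BDNF IgA than in the untreated cells of the second series. Of the 7 genes, 6 were called higher and 0 lower, where 7.67% of all genes tested were called and 4.49% were called higher. The median log2 fold change was 0.44 beside 0.0022 for all genes tested. All 7 had groups that did not overlap, which 12.8% of all genes showed in that direction.

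HLA-B had 7348, 6418 and 8254 normalised counts with BDNF IgA, 5873, 5925 and 6299 with TSPAN7 IgA, and 4161, 4314 and 4556 in untreated cells. The 3 groups were fully separate, with BDNF IgA highest and its replicate 3 at the top. The log2 fold change against untreated cells was 0.76 (SE 0.06, edgeR adjusted p = 6.63e-08) for BDNF IgA and 0.47 (SE 0.07, adjusted p = 5.5e-05) for TSPAN7 IgA. Both calls held under all 18 alternative fits.

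HLA-C had 16005, 13980 and 17021 normalised counts with BDNF IgA, 13189, 13278 and 13623 with TSPAN7 IgA, and 11368, 11266 and 12032 in untreated cells, again with no overlap between groups. The log2 fold changes were 0.44 (SE 0.05, edgeR adjusted p = 1.94e-05) and 0.21 (SE 0.05, adjusted p = 0.0188). The TSPAN7 call was lost without TSPAN7 replicate 2 (0.22, adjusted p = 0.0668) or 3 (0.20, adjusted p = 0.081), or without untreated replicate 1 (0.20, adjusted p = 0.0809) or 2 (0.19, adjusted p = 0.0866), with little change in its size.

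The non-classical HLA-E had 5766, 5138 and 6447 normalised counts with BDNF IgA, 5206, 4966 and 5041 with TSPAN7 IgA, and 4496, 4611 and 4594 in untreated cells. Both antibody groups lay above the untreated libraries and overlapped each other. HLA-E was called with BDNF IgA (0.34, SE 0.06, edgeR adjusted p = 0.000824) and not with TSPAN7 IgA (0.15, SE 0.06, adjusted p = 0.124), although the latter was called when only the 6 libraries compared were fitted (adjusted p = 0.0127), with no filter on low counts (adjusted p = 0.0495), and without BDNF IgA replicate 2 (adjusted p = 0.0217) or 3 (adjusted p = 0.0422). HLA-F had 843, 810 and 901 normalised counts with BDNF IgA, 738, 748 and 774 with TSPAN7 IgA, and 581, 619 and 601 in untreated cells, and no library of one group reached another. Its log2 fold changes were 0.50 (SE 0.07, adjusted p = 5.52e-05) and 0.33 (SE 0.07, adjusted p = 0.00425). Here HLA-F-AS1 was not called, with log2 fold changes of 0.07 (adjusted p = 0.893) and 0.47 (adjusted p = 0.155).

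HLA-G had 27.3, 18.0 and 21.9 normalised counts with BDNF IgA, 24.97, 8.43 and 16.2 with TSPAN7 IgA, and 14.2, 7.08 and 6.32 in untreated cells. Its BDNF libraries were above all untreated ones and its TSPAN7 libraries overlapped them. The log2 fold changes of 1.28 (95% interval 0.35 to 2.21, edgeR adjusted p = 0.0837) and 0.86 (-0.11 to 1.83, adjusted p = 0.296) were not called. At these counts smaller changes could not be detected.

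B2M had 25884, 22628 and 27671 normalised counts with BDNF IgA, 22592, 22057 and 23585 with TSPAN7 IgA, and 18007, 18500 and 19600 in untreated cells. Both antibody groups were above all untreated libraries and overlapped each other. The log2 fold changes were 0.44 (SE 0.06, edgeR adjusted p = 3.1e-05) and 0.28 (SE 0.06, adjusted p = 0.00292), and both held under all 18 alternative fits.

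NLRC5, which was not called in the first series, was called higher with both antibodies. It had 718, 901 and 914 normalised counts with BDNF IgA, 900, 870 and 896 with TSPAN7 IgA, and 701, 696 and 660 in untreated cells. BDNF IgA replicate 1 was only just above the untreated libraries, and the other 5 antibody libraries were well above them. Its log2 fold change was 0.30 (SE 0.08, edgeR adjusted p = 0.0218) under BDNF IgA and 0.37 (SE 0.08, adjusted p = 0.00467) under TSPAN7 IgA. The TSPAN7 call held under all 18 alternative fits. The BDNF call was lost without BDNF IgA replicate 3 (0.24, adjusted p = 0.13) and without untreated replicate 1 (0.32, adjusted p = 0.0564), 2 (0.31, adjusted p = 0.0631) or 3 (0.28, adjusted p = 0.0914). Whether NLRC5 responded differently in the first and second series was not tested.

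With TSPAN7 IgA, 5 of the 7 genes were called higher than in untreated cells (HLA-B, HLA-C, HLA-F, B2M and NLRC5) and 0 lower, beside 8.54% of all genes called and 4.46% called higher. The median log2 fold change was 0.33 beside -0.00072 for all genes tested, and 6 of 7 had groups that did not overlap, against 14.4% of all genes in that direction. The BDNF and TSPAN7 comparisons share their untreated libraries. The heavy chains summed with the listed pseudogenes were 30146, 26516 and 32827 normalised counts with BDNF IgA, 25230, 25106 and 25932 with TSPAN7 IgA, and 20762, 20990 and 21928 in untreated cells. This gave log2 fold changes of 0.49 (SE 0.06) with BDNF IgA and 0.26 (SE 0.06) with TSPAN7 IgA.

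**Figure D2:**
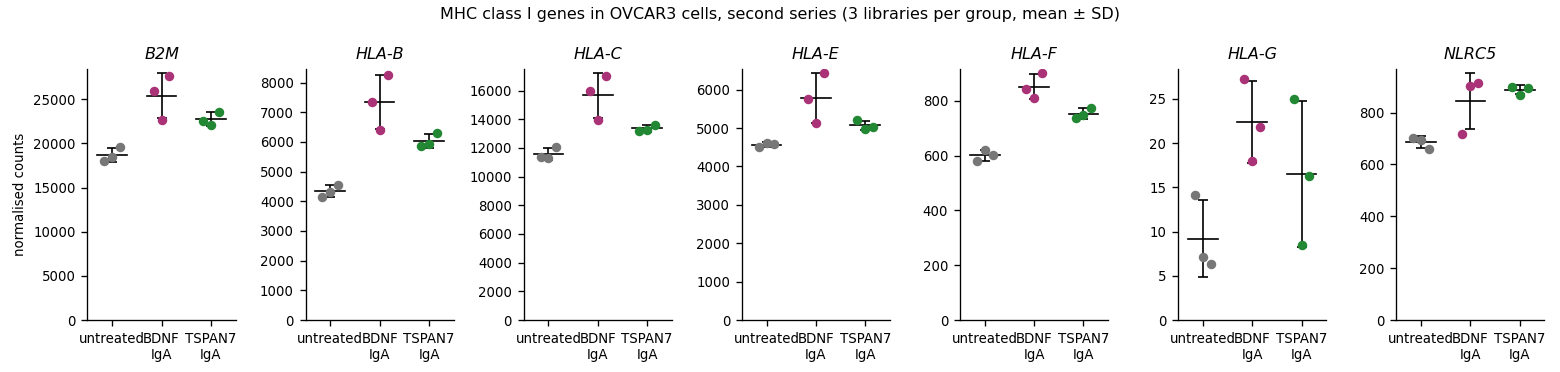
Normalised counts (y axis, from 0) of the 7 genes in untreated, BDNF IgA and TSPAN7 IgA libraries of the second series, with 1 point per library in replicate order and the mean ± SD of 3 libraries in black. Both antibody groups lie above the untreated libraries for every gene except HLA-G, where the TSPAN7 libraries overlap them.

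Set directly against each other, TSPAN7 IgA gave lower levels of HLA-B, HLA-C and HLA-E than BDNF IgA. Of the 7 genes, 3 were called lower and 0 higher, beside 7.92% of all genes called and 4.5% called lower. The log2 fold changes of the called genes were -0.28 for HLA-B (SE 0.06, edgeR adjusted p = 0.00891), -0.23 for HLA-C (SE 0.05, adjusted p = 0.0123) and -0.19 for HLA-E (SE 0.06, adjusted p = 0.0497). HLA-F at -0.18 (95% interval -0.32 to -0.04, adjusted p = 0.115), B2M at -0.16 (-0.28 to -0.04, adjusted p = 0.0925), HLA-G at -0.42 (-1.28 to 0.43, adjusted p = 0.599) and NLRC5 at 0.07 (-0.09 to 0.24, adjusted p = 0.645) were not called. HLA-B, HLA-C and HLA-F had groups that did not overlap, which 12.1% of all genes showed in that direction. The calls rested on single libraries. The number of genes called lower was 1 without BDNF IgA replicate 1, 5 without BDNF IgA replicate 2, 0 without BDNF IgA replicate 3, 1 without TSPAN7 IgA replicate 1 and 0 without TSPAN7 IgA replicate 2. HLA-B stood at -0.19 (adjusted p = 0.0784) without BDNF IgA replicate 3 and at -0.27 (adjusted p = 0.0623) without TSPAN7 IgA replicate 2. HLA-E kept its call in 9 of 18 alternative fits and lost it, among others, when only the 6 libraries compared were fitted (adjusted p = 0.0887).

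**Figure D3:**
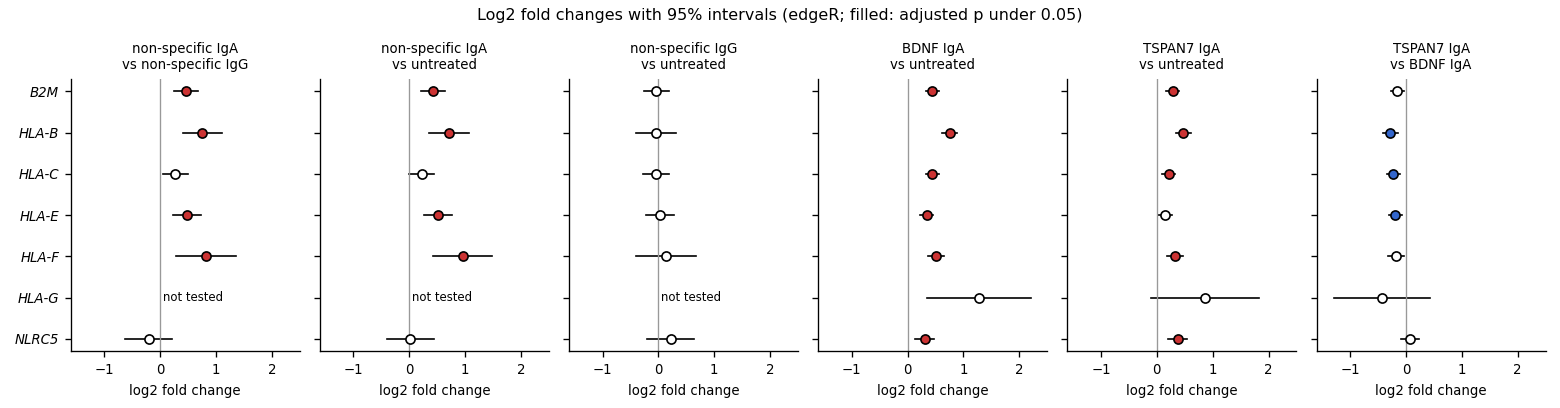
Log2 fold change (x axis) of each gene in the 6 comparisons, with lines for 95% intervals and filled points for genes called at an edgeR adjusted p under 0.05 (red higher, blue lower). The chains lie to the right of 0 in all comparisons of an IgA with its controls, at 0 within error for non-specific IgG against untreated cells, and mostly to the left for TSPAN7 against BDNF IgA.

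The composition of the class I pool was measured as ratios of raw counts within a library, which need no scaling between libraries. In the second series HLA-B gained on HLA-C in every antibody library. There were 0.376 ± 0.00876 (SD, n = 3) HLA-B counts per HLA-C count in untreated cells, 0.468 ± 0.0149 with BDNF IgA and 0.451 ± 0.00961 with TSPAN7 IgA, and each antibody group was fully above the untreated one (exact permutation test, two-sided p = 0.1, the smallest that 3 against 3 libraries allow). HLA-B made up 20.6% ± 0.378 of the counts of the 5 heavy chains in untreated cells, 24.7% ± 0.505 with BDNF IgA and 23.9% ± 0.510 with TSPAN7 IgA. HLA-C went from 54.8% ± 0.612 to 52.8% ± 0.635 and 53.0% ± 0.294, and HLA-E from 21.7% ± 0.545 to 19.5% ± 0.261 and 20.1% ± 0.630, both without overlap.

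In the first series the same ratio was 0.224 ± 0.00787 in untreated cells, 0.224 ± 0.0134 with IgG and 0.319 ± 0.104 with non-specific IgA. The IgA libraries ranged from 0.229 to 0.433 and overlapped the others (exact permutation test, two-sided p = 0.2), and the top value came from replicate 3. B2M counts per heavy chain count were 0.887 ± 0.0132 in untreated cells of the second series, 0.856 ± 0.00791 with BDNF IgA (no overlap, exact permutation test, two-sided p = 0.1) and 0.901 ± 0.0155 with TSPAN7 IgA (overlap, exact p = 0.4). The corresponding means in the first series were 0.635, 0.629 with IgG and 0.653 with IgA, with overlap. Over the 54 such comparisons the smallest Benjamini-Hochberg adjusted p was 0.372, and with 3 libraries a group none could pass 0.05.

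**Figure D4:**
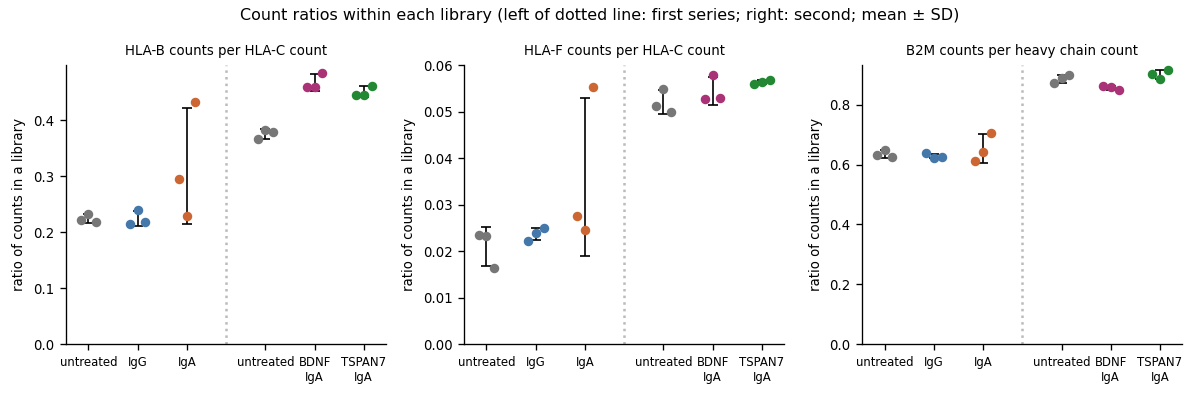
Ratios of raw counts within each library (y axis, from 0) for HLA-B per HLA-C, HLA-F per HLA-C and B2M per heavy chain count, with 1 point per library, mean ± SD of 3 libraries in black, and a dotted line between the series. HLA-B per HLA-C is higher in both antibody groups of the second series than in its untreated cells, while non-specific IgA spreads from 0.229 to 0.433.

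The machinery that fills class I molecules was followed in a list of 9 peptide loading genes. TAP1 was called higher in both series, and the other called genes are named for each. Non-specific IgA against IgG, where 12.6% of all genes tested were called higher, gave 4 higher and 0 lower. These were TAP1, a subunit of the transporter that brings peptides into the endoplasmic reticulum (log2 fold change 0.99, edgeR adjusted p = 0.00405), and the chaperones CALR (0.82, adjusted p = 0.000488), PDIA3 (0.38, adjusted p = 0.0102) and CANX (0.37, adjusted p = 0.0115), which serve the folding of many glycoproteins besides class I. The median of the list was 0.37 beside -0.01 for all genes tested. TAP1 had 816, 659 and 1193 normalised counts with IgA against 429, 529 and 379 with IgG, without overlap, and its log2 fold change without IgA replicate 3 was 0.72 (adjusted p = 0.00532). Against untreated cells, where 12.9% of all genes tested were called higher, the count was again 4 higher and 0 lower. Without IgA replicate 3 it was 5 higher and 0 lower in both comparisons, and with scaling by total count alone it was 2 higher in both. IgG against untreated cells gave 0 calls, with 0 genes at an unadjusted p under 0.05 and 0 called by DESeq2.

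In the second series BDNF IgA gave 4 higher and 0 lower of the 9, namely TAP1 (0.55, edgeR adjusted p = 4.36e-05), its partner subunit TAP2 (0.27, adjusted p = 0.00414), the bridging protein tapasin TAPBP (0.31, adjusted p = 0.00166) and the trimming peptidase ERAP1 (0.31, adjusted p = 0.00694). TSPAN7 IgA gave 2 higher and 0 lower, TAP1 (0.52, adjusted p = 8.87e-05) and TAP2 (0.31, adjusted p = 0.0012). The chaperones were not called here. CALR stood at 0.06 (adjusted p = 0.457) and CANX at 0.04 (adjusted p = 0.623) with BDNF IgA. List medians were 0.27 and 0.08, beside 0.0022 and -0.00072 for all genes. Across all genes tested, 4.49% were called higher with BDNF IgA and 4.46% with TSPAN7 IgA. TAP1 had 1286, 1179 and 1434 normalised counts with BDNF IgA, 1379, 1225 and 1194 with TSPAN7 IgA and 864, 929 and 863 in untreated cells. Between TSPAN7 and BDNF IgA only TAPBP of the 9 was called (-0.23, adjusted p = 0.0181), where 4.5% of all genes tested were called lower.

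The 5 immunoproteasome genes encode catalytic subunits (PSMB8, PSMB9, PSMB10) and the activator PA28 (PSME1, PSME2) that favour the cutting of class I peptides. With BDNF IgA 4 were called higher and 0 lower, PSMB9 (0.48, edgeR adjusted p = 0.0003), PSME1 (0.39, adjusted p = 2.47e-05), PSMB8 (0.36, adjusted p = 0.00021) and PSME2 (0.28, adjusted p = 0.000526). With TSPAN7 IgA the 4 were also called, PSME2 (0.32, adjusted p = 0.000103), PSMB9 (0.31, adjusted p = 0.0125), PSME1 (0.22, adjusted p = 0.00698) and PSMB8 (0.21, adjusted p = 0.0194). The remaining gene, PSMB10, was not called with either antibody, and its log2 fold change was negative in both comparisons. With BDNF IgA its libraries lay wholly below the untreated ones. List medians were 0.36 and 0.22, and 4.49% and 4.46% of all genes tested were called higher in these comparisons. Under TSPAN7 IgA the count of 4 fell to 2 without untreated replicate 3, and PSMB9 was lost there (0.27, adjusted p = 0.0732), without untreated replicate 1 (0.30, adjusted p = 0.0523) and without TSPAN7 IgA replicate 2 (0.29, adjusted p = 0.0735).

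Non-specific IgA gave 0 immunoproteasome calls against IgG by edgeR, where 0 had an unadjusted p under 0.05, and 0 against untreated cells, where 2 had one. DESeq2 called 0 in both, and the medians were -0.18 and -0.08. Across all genes tested, edgeR called 24.2% against IgG and 25% against untreated cells. Without IgA replicate 3 the counts were 0 against IgG and 2 lower against untreated cells, PSMB9 and PSMB10 (-0.88, adjusted p = 0.0278). Scaling by total count alone gave 2 lower in both comparisons. PSMB9, which lies next to TAP1 in opposite orientation, had 318, 306 and 570 normalised counts with IgA, 399, 421 and 360 with IgG, and 405, 420 and 431 in untreated cells. IgA replicates 1 and 2 were below and replicate 3 above the other 6 libraries. The log2 fold change of 0.01 against IgG (adjusted p = 0.98) and of -0.08 against untreated cells (adjusted p = 0.813) was -0.34 (adjusted p = 0.0934) and -0.43 (adjusted p = 0.0377) without IgA replicate 3. IgG against untreated cells gave 0 calls in the list by edgeR and by DESeq2, with 0 genes at an unadjusted p under 0.05. PSME1 was the 1 gene called between TSPAN7 and BDNF IgA (-0.17, adjusted p = 0.0376), where 4.5% of all genes tested were called lower.

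Factors that act on class I promoters were followed next. Of 6 interferon and NF-κB factors, non-specific IgA raised 3 against IgG and lowered 0, IRF1 (1.19, edgeR adjusted p = 0.00355), the NF-κB precursor NFKB1 (1.11, adjusted p = 3.8e-05) and IRF2 (0.61, adjusted p = 0.00181), with a list median of 0.33, where 12.6% of all genes tested were called higher. Without IgA replicate 3 their log2 fold changes were 0.85 for IRF1, 1.07 for NFKB1 and 0.51 for IRF2, and all 3 were called. The counts against untreated cells were also 3 and 0, and without IgA replicate 3 they were 3 higher and 1 lower in both comparisons, the latter being STAT2 (-0.55 in each). BDNF IgA raised 2 and lowered 0, IRF9 (1.12, adjusted p = 0.00297) and STAT2 (0.53, adjusted p = 4.14e-05), which act together after type I interferon, and the count was 4 without BDNF IgA replicate 2. TSPAN7 IgA raised 3 and lowered 0, IRF9 (0.95, adjusted p = 0.0103), STAT2 (0.27, adjusted p = 0.0183) and IRF1 (0.17, adjusted p = 0.0413), the last of which was lost without BDNF IgA replicate 1 or any 1 TSPAN7 IgA or untreated library (0.14 to 0.19). The count of 3 was 0 without TSPAN7 IgA replicate 1 or 2 or untreated replicate 3, and 1 without untreated replicate 2. NFKB1 stood at -0.07 (adjusted p = 0.544) and 0.11 (adjusted p = 0.314) with the 2 specific antibodies. Genes called higher were 12.9% of all genes tested for non-specific IgA against untreated cells, 4.49% with BDNF IgA and 4.46% with TSPAN7 IgA. The series were not compared by a test.

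IRF1 had 3032, 1894 and 4415 normalised counts with non-specific IgA against 1124, 1337 and 1636 with IgG, and 2381, 2281 and 2490 with BDNF IgA against 2137, 2226 and 2088 in its untreated cells (0.15, adjusted p = 0.0701). Of 8 factors of the SXY module and its neighbours, NFYB, a subunit of the factor that binds CCAAT, was called for non-specific IgA against IgG (0.44, adjusted p = 0.0331), 1 of 8 beside the 12.6% of all genes called higher. The call was lost without IgA replicate 3 (0.39, adjusted p = 0.0583). In that fit another of the 8, CREB1, was called higher against IgG (0.27, adjusted p = 0.0475) and against untreated cells (0.27, adjusted p = 0.0473). No factor of the 8 was called higher against IgG without any one of IgA replicate 1, IgG replicates 1 and 2 and untreated replicates 1 and 2. The same held with scaling by total count alone and with only the 6 libraries compared. By edgeR or DESeq2 with all libraries, 0 were called in the other 5 comparisons, beside 0% to 25% of all genes tested called by edgeR. In those 5, between 0 and 4 of the 8 had an unadjusted p under 0.05, with no share of all genes at that threshold to set beside it. Between IgG and untreated cells 0 of the 6 interferon and NF-κB factors were called by edgeR or DESeq2, with 0 at an unadjusted p under 0.05. STAT2 was the 1 factor called between TSPAN7 and BDNF IgA (-0.26, adjusted p = 0.0249), where 4.5% of all genes tested were called lower. The count of 1 for these factors fell to 0 without BDNF IgA replicate 3 or TSPAN7 IgA replicate 2 or 3. The count of 1 for peptide loading in that comparison (TAPBP) fell to 0 without the same libraries or BDNF IgA replicate 1. That for the immunoproteasome (PSME1) fell to 0 with only the 6 libraries compared and without any 1 library except BDNF IgA replicate 2, where it was 2, and untreated replicate 3.

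**Figure D5:**
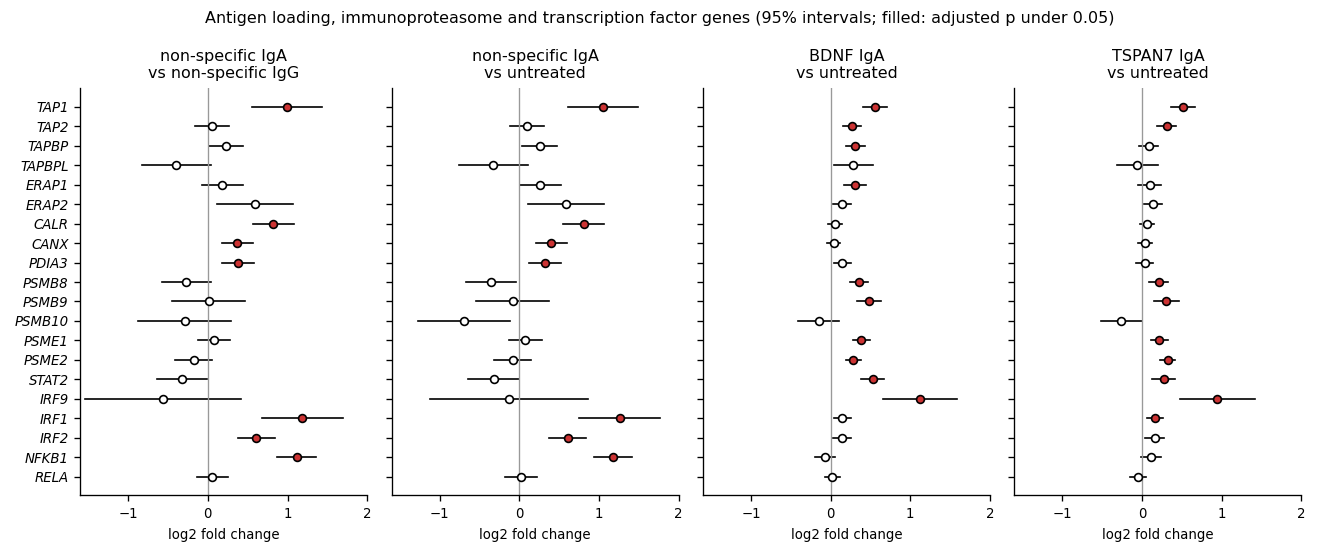
Log2 fold change (x axis) with 95% intervals of the genes of peptide loading, the immunoproteasome, and interferon and NF-κB factors (y axis) in 4 comparisons, with red points for genes called higher at an edgeR adjusted p under 0.05 and open points for genes not called. CALR, CANX, PDIA3, IRF1, IRF2 and NFKB1 are filled under non-specific IgA, and TAP2, PSMB8, PSMB9, PSME1, PSME2, STAT2 and IRF9 under both specific antibodies, with TAP1 filled in all 4 and IRF1 also under TSPAN7 IgA.

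The genes whose level across libraries was most like the mean of the class I genes were found by the smaller of 2 Pearson correlations, 1 over the 9 libraries of each series, among the 17548 genes tested in both. They were TAP1 (0.94), CD164, a sialomucin (0.93), HMGA1, a chromatin protein (0.93), GBP3, a guanylate-binding protein (0.93), and PDZK1IP1, a small membrane protein (0.92). Among the class I genes themselves the value was 0.96 for B2M and HLA-B, 0.94 for HLA-E, 0.88 for HLA-F, 0.76 for HLA-C and 0.10 for NLRC5, whose 2 correlations were 0.10 (first series) and 0.72 (second series). Each class I gene is itself part of that mean, which raises its value, so its value is not comparable with those of TAP1 and the others. The points share library and depth, and 3 groups of libraries, so all these values are a description.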

How the data were processed

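Raw read counts per gene were deposited by the authors for 18 OVCAR3 libraries, with no normalization. Per the study's methods, paired reads of 75 bases were trimmed, aligned to GRCh37 and counted where uniquely aligned. The labels list bcl2fastq 2.20.0.422, cutadapt 1.8.1 and HTSeq 0.6.1, while the methods name featureCounts. The strand setting was not given in the sources used here. Exact duplicate entries (2055, between 1.99% and 2.46% of counts) were dropped from the second table, none of them a class I gene of the set. Groups and replicate numbers came from sample titles. The 24 h exposure is that of the labels, and a description in the study's supplement gives a shorter time.

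Each series was fitted once over its 9 libraries with the two-sided quasi-likelihood F test of edgeR 4.0.16 under R 4.3.3, with group as the only term, TMM factors and the default filterByExpr, with Benjamini-Hochberg adjustment over all genes tested. SE is the absolute log2 fold change over the square root of F. Shares of all genes at an unadjusted p under 0.05 were not taken, so no count at that threshold has one beside it. The heavy chain genes and the listed class I pseudogenes were summed. This sum replaced them in a fit of its own and carries no p-value here. Libraries of a group differed by more than counting noise (chi-square per degree of freedom 4.16 to 259). Precision was taken from the spread between libraries, since without molecular identifiers reads do not stand for separate molecules. Positions, transcript lengths and shared windows came from GENCODE on GRCh37, and promoters from RefSeq on GRCh38.p14. Ratios were compared by exact permutation tests.

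The class I genes, the lists (peptide loading, immunoproteasome, class I promoter factors, interferon and NF-κB factors, class I-like chains, MHC class II, class I pseudogenes) and the tests were chosen with earlier results of these data known. Named genes were the 7 genes, TAP1, PSMB9, IRF1 and CIITA, up to 3 called genes of largest absolute log2 fold change per list and comparison, and the 5 most alike genes. A further gene of a list is named where it completes the count, in the main fit or an alternative. An item of the interferon and NF-κB list is not reported here and is left out of that list's counts. Alternatives were RLE scaling, total count alone, DESeq2 1.42.0, other filters, omission of mitochondrial and ribosomal RNA genes, only the 6 libraries compared, a replicate block, duplicates kept, and omission of each library. Tested on simulated counts with 200 genes shifted by 1.5 on the log2 scale, it recovered 95.0% of them for non-specific IgA against IgG (18012 genes, 5.94% of calls false) and 99.5% for BDNF IgA against untreated cells (18732 genes, 5.24% false). Only genes above a minimum average count were shifted, and the shift exceeded every called class I log2 fold change. The check therefore does not give the power for changes as small as those, or for genes with few counts.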

Additional observations from a re-analysis of the deposited data

How the results depend on the processing

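The number of class I genes called higher moved from 4 to 1 (non-specific IgA against IgG) and from 4 to 2 (against untreated cells) when libraries were scaled by total count alone. The summed heavy chains had log2 fold changes of 0.17 in both comparisons under that scaling, and of 0.0026 for IgG against untreated cells, where the sign turned. With 1 library left out at a time, the summed heavy chains ranged from 0.33 to 0.48 (IgA against IgG), 0.30 to 0.46 (IgA against untreated), -0.073 to 0.026 (IgG against untreated) and -0.31 to -0.16 (TSPAN7 against BDNF IgA), and the number of genes called lower in the last comparison ranged from 0 to 5. Of 681 alternative values of single class I genes, 627 kept their direction and side of the threshold, 34 lost a call, 11 gained one and 9 turned sign. Of 420 values for TAP1, PSMB9, IRF1 and CIITA, 13 turned sign, and of 1260 counts of called genes in the other lists, 109 moved by more than 1.5 times. The causes were not tested.

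Values that turned sign under another setting were -0.19 for NLRC5 (IgA against untreated) and -0.26 for PSMB9 (IgA against IgG) with total count alone, and -0.0052 for PSMB9 in the latter comparison with no filter on low counts. With 1 library left out, NLRC5 ranged from -0.053 to 0.061 for IgA against untreated cells, and PSMB9 from -0.34 to 0.16 for IgA against IgG and from -0.43 to 0.074 for IgA against untreated cells. For IgG against untreated cells the ranges were -0.14 to 0.031 for HLA-B, -0.092 to 0.00010 for HLA-C, -0.015 to 0.089 for HLA-E, -0.014 to 0.23 for HLA-F, -0.081 to 0.0025 for B2M, -0.082 to 0.16 for TAP1 and -0.077 to 0.20 for IRF1. For TSPAN7 against BDNF IgA they were -0.031 to 0.13 for NLRC5, -0.013 to 0.049 for IRF1 and -0.10 to 0.040 for TAP1. Except for PSMB9 against untreated cells without IgA replicate 3, none of these values was called.

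With the replicate number as a block, class I genes called higher were 4, 4, 0, 7 and 5 in the first 5 comparisons and 4 were called lower for TSPAN7 against BDNF IgA. The added calls were HLA-G with BDNF IgA (1.32, edgeR adjusted p = 0.0495) and B2M in the last comparison (-0.16, adjusted p = 0.0382), and PSMB9 for IgA against IgG was -0.029 under the replicate block. Correlations of deviations between same-numbered libraries were -0.117 to 0.578 (first series) and -0.0941 to 0.216 (second series), with 3 of 9 pairs over 0.1 in each. Between different-numbered libraries they were -0.530 to 0.439 and -0.209 to 0.152, with 2 of 18 pairs over 0.1 in each. These values do not settle whether the numbers mark pairs, and the main fit did not take them as pairs. HLA-G of the first series had so few counts that only the fits without a filter or with DESeq2 gave it a value. Where a library was left out, the spread was estimated from the remaining libraries of all groups.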

Other observations

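Other chains that fold like a class I heavy chain were followed in a list of 8, of which 6 were tested. Across all genes tested, 12.6% were called higher for non-specific IgA against IgG and 12.9% against untreated cells. With BDNF IgA this share was 4.49% and with TSPAN7 IgA 4.46%, while 4.5% were called lower for TSPAN7 against BDNF IgA. Non-specific IgA against IgG raised 3 and lowered 0, the stress ligands MICB (log2 fold change 0.99, edgeR adjusted p = 0.00365) and MICA (0.98, adjusted p = 0.00463), which are bound by NKG2D, and the protein C receptor PROCR (0.79, adjusted p = 0.00424). Against untreated cells the count was also 3 and 0, and both counts were the same without IgA replicate 3. BDNF IgA raised 2 and lowered 0, the neonatal Fc receptor chain FCGRT (0.46, adjusted p = 0.0443) and MR1 (0.39, adjusted p = 0.0434), which presents microbial metabolites. TSPAN7 IgA raised 2 and lowered 0, PROCR (0.38, adjusted p = 0.0109) and MICB (0.30, adjusted p = 0.0495), while each count of 2 fell to 0 or 1 without most single libraries and to 1 by DESeq2. TSPAN7 against BDNF IgA gave FCGRT as the 1 gene called (-0.77, adjusted p = 0.00195). Medians in these 5 comparisons were 0.59, 0.55, 0.23, 0.06 and 0.04. IgG against untreated cells gave 0 calls by edgeR or DESeq2, with 0 genes at an unadjusted p under 0.05.

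The MHC class II genes, which carry the SXY module in their promoters too, were followed as a further list. Of 12 listed with their coactivator CIITA, 9 were tested. Across all genes tested, 11.6% were called lower for non-specific IgA against IgG and 12.1% against untreated cells. With BDNF IgA 4.49% were called higher than in untreated cells, and 4.5% were called lower for TSPAN7 against BDNF IgA. Non-specific IgA against IgG gave 2 lower and 0 higher, CIITA (-1.66, edgeR adjusted p = 0.0184) and the peptide exchange subunit HLA-DMA (-0.93, adjusted p = 0.00595), with a median of -0.49. CIITA had 21.3, 43.0 and 6.32 normalised counts with IgA against 60.7, 77.4 and 96.6 with IgG and 92.4, 84.9 and 91.0 in untreated cells, and the call was lost without IgA replicate 1 (-1.56, adjusted p = 0.0572) or IgG replicate 2 (-1.68, adjusted p = 0.0514) or 3 (-1.49, adjusted p = 0.0709), and with only the 6 libraries compared (-1.68, adjusted p = 0.0571). Without IgA replicate 3 the values against IgG were -1.27 (adjusted p = 0.0166) for CIITA and -0.83 (adjusted p = 0.00942) for HLA-DMA. Against untreated cells the count was also 2 lower and 0 higher, with a median of -0.62, and it was 1 lower without any 1 library other than IgA replicate 1, without which it was 3. BDNF IgA gave 2 higher and 0 lower, HLA-DMA (0.71, adjusted p = 0.00306) and the invariant chain CD74 (0.31, adjusted p = 0.0411), with a median of 0.38, and the count was 1 in 7 of the 9 fits that each left out 1 library. TSPAN7 IgA against untreated cells gave 0 calls by edgeR or DESeq2, with 1 gene at an unadjusted p under 0.05 and a median of -0.22. Against BDNF IgA it gave 4 lower and 0 higher, among them HLA-DPB1 (-0.77, adjusted p = 0.046), HLA-DRA (-0.65, adjusted p = 0.032) and HLA-DMA (-0.60, adjusted p = 0.012), with a median of -0.60, and 1 without BDNF IgA replicate 1 or 3 or TSPAN7 IgA replicate 2. IgG against untreated cells gave 0 calls by edgeR or DESeq2, with 0 genes at an unadjusted p under 0.05.

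Of 12 class I pseudogenes listed, 3 were tested, and 0 were called by edgeR in any comparison. Of all genes tested, 24.2% were called for non-specific IgA against IgG, 25% against untreated cells, and 0% for IgG against untreated cells. Shares in the second series were 7.67% with BDNF IgA, 8.54% with TSPAN7 IgA and 7.92% between the antibodies. An unadjusted p under 0.05 was reached by 1 of the 3 in the comparisons of non-specific IgA with untreated cells, BDNF IgA with untreated cells and TSPAN7 with BDNF IgA. The share of all genes at that unadjusted threshold was not taken, so these counts cannot be set against it.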
